A study of Mus musculus with 8 samples.

Results

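Conjugation enzymes attach a polar group to drugs, steroids, bile acids and reactive metabolites, so that the product can be carried out of the cell. The glutathione S-transferases (GST) add glutathione, the UDP-glucuronosyltransferases (UGT) add a sugar, usually glucuronic acid, and the cytosolic sulfotransferases (SULT) add sulfate. In the kidney these enzymes are found mainly in the proximal tubule, which also takes up organic anions from the blood and secretes their conjugates into urine. Genes were taken by the name in the array annotation: Gst followed by a letter and a digit, Ugt1, Ugt2 or Ugt3 followed by a letter, or Sult followed by a digit. This gave 82 of 56601 probes and 56 genes, namely 21 GST, 14 UGT and 21 SULT genes. The measured level, not the rule, decided which could be tested: 44 of the 56 passed the filter on dim probes, 20 GST, 13 UGT and 11 SULT genes.

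RNA of whole kidney was read on 1-colour Agilent arrays with probes of 60 bases, 1 array for each of 8 male mice aged 20 weeks. All mice were of the C57BLKS/J Iar strain, and every group had n = 2. The db/db mice carry Leprdb on both chromosomes, an allele that removes the signalling form of this receptor for leptin and leads to obesity and diabetes. They were untreated, were given nanoparticles labelled PEI-NPs with a control miRNA, or were given PEI-NPs with a miR-181b-5p mimic, a synthetic RNA that acts as that miRNA. Normal mice are labelled m+/m+, so the labels set the db/db and normal mice apart at the marker m as well as at Lepr. There was no normal group with nanoparticles, and the sources used here do not give the sequence of the control miRNA, the dose, the route or the schedule.

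Levels are log2 intensities relative to the 75th percentile of the same array, so 0 is that percentile. Levels of different probes were ranked only to choose probes and genes to name, and were put together only in sums of markers. A brighter probe is not read as more RNA, and the brightest markers weigh most in a sum. Between 56.5% and 62.5% of spots lay well above background, and 0 were saturated. Replicate arrays correlated at r = 0.997 in untreated db/db, 0.995 in control miRNA, 0.976 in mimic and 0.992 in normal kidney. Of the 44 genes, 0, 2, 7 and 0 differed more than 2-fold between the replicates of these groups, in the same order, against 0.733%, 1.6%, 11% and 3.05% of all genes. Mimic replicate 1 stood apart from the other arrays: 19 of 20 GST genes were lower on it than on mimic replicate 2, with a median gap of -0.65, against 7 of 13 UGT genes (-0.50) and 4 of 11 SULT genes (0.34). Where leaving it out ended the call of a named gene for the mimic, the value without it is given, as it is for several other values that it moved.

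Summed over 12 proximal tubule markers, the log2 level was 9.41 on mimic replicate 1 and lay between 9.93 and 10.21 on the other 7 arrays, both bounds being those of the normal kidneys. In whole tissue, fewer cells of a type and less RNA per cell cannot be told apart. All arrays sat on 1 slide and were read in 1 scan. Untreated and normal mice shared 1 row of arrays and both nanoparticle groups the other, so the row and the nanoparticles cannot be told apart. Mimic and untreated db/db arrays shared 1 pair of columns, and control miRNA and normal arrays the other pair, so in the other 4 comparisons array column and group cannot be told apart.

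The probes and start regions of the genes in the Ugt2b cluster are shown first, because most of the UGT calls lay there and because probes of near copies can bind the same transcripts. Of 3288 pairs of probes from different genes, 4 matched at 40 or more aligned bases. The probes of Ugt2b5 and Ugt2b37 matched at 46 of 55 bases, with 18 as the longest shared run. A stretch of 30 bases of each, at chr5:87554180-87554209 and chr5:87669727-87669756 on mm9, minus strand, reads as follows, with the bases that differ in capitals.
Ugt2b5 probe: aactttcagcctcattctTatttatgaAcc
Ugt2b37 probe: aactttcagcctcattctAatttatgaGcc
Whether each probe reads only its own transcript was not tested.

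The other 3 close pairs joined Sult2a1, Sult2a2 and Sult2a4, hydroxysteroid sulfotransferases whose genes lie side by side on chromosome 7. The Sult2a2 probe matched that of Sult2a1 at 54 of 59 bases and was well above background on 8 arrays, while the probes of Sult2a1 and Sult2a4 were so on 0. In the stretches below, at chr7:14364941-14364970 for Sult2a2 (plus strand) and chr7:14381618-14381647 for Sult2a1 (minus strand) on mm9, capitals mark the 3 bases that differ.
Sult2a2 probe: tatcttgaatacctGAatAtggtcatagaa
Sult2a1 probe: tatcttgaatacctAGatGtggtcatagaa

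The Ugt2b genes lie together on chromosome 5. In RefSeq's GRCm38.p6 annotation they run from Ugt2b34 (86889770 to 86906937) through Ugt2b1, Ugt2b35, Ugt2b36, Ugt2b5 and Ugt2b37 to Ugt2b38 (87409939 to 87424203), with Ugt2a3 before Ugt2b38 and Ugt2a1 and Sult1d1 after it. The 100 bases before the start of 5 of them are given 5' to 3' on the gene's own strand, the minus strand for all 5. Capitals mark the longest part of a run of 62 bases that Ugt2b5, Ugt2b37 and Ugt2b38 share without a mismatch.
Ugt2b5, chr5:87140341-87140440: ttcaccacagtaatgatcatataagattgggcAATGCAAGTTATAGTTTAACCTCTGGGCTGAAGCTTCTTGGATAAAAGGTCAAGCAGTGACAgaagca
Ugt2b37, chr5:87254789-87254888: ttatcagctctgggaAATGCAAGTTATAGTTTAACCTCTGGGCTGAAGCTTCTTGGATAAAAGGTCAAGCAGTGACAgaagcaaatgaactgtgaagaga
Ugt2b38, chr5:87424204-87424303: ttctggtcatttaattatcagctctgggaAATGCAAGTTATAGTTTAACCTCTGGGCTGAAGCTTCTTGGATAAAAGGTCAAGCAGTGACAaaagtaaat
Ugt2b36, chr5:87092556-87092655: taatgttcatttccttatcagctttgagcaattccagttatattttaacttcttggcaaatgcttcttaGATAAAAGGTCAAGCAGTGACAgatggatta
Ugt2b34, chr5:86906938-86907037: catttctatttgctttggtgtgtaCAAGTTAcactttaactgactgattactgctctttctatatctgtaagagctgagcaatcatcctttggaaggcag
The longest part of the run was 22 bases in Ugt2b36, 7 in Ugt2b34 and 6 in Ugt2b35. Over the RefSeq promoter window of 300 bases, Ugt2b37 and Ugt2b38 were identical at 91.0% of bases and Ugt2b38 and Ugt2b5 at 87.0%. Ugt2b37 and Ugt2b5 matched at 82.3%. Ugt2b36 matched Ugt2b5, Ugt2b37 and Ugt2b38 at 65.7% to 67.3%, and Ugt2b35 matched these and Ugt2b36 at 58.3% to 63.3%. Ugt2b34 matched the other Ugt2b genes at 51.7% to 56.0%. Ugt2b1 matched the others at 53.0% to 56.0%, so low identity was not particular to Ugt2b34. Whether promoter identity bears on the direction of change was not tested.

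In untreated db/db against normal kidney 6 of 13 UGT genes passed (46.2%), 5 of them lower, beside 2 of 20 GST genes (10%) and 1 of 11 SULT genes (9.09%). Ugt2b5, Ugt2b35, Ugt2b36, Ugt2b37 and Ugt2b38, which code for enzymes of the subfamily that glucuronidates steroids and bile acids, fell 3.29- to 4.13-fold in untreated db/db kidney, while their neighbour Ugt2b34 rose 5.62-fold. In all, 9 of 44 genes passed in untreated db/db against normal kidney (20.5%), 4 higher and 5 lower. Over all 22369 genes tested the share was 3.5%, with 1.24% higher and 2.26% lower. The GST and SULT genes that passed were higher. The median log2 difference was 0.29 for GST, -0.72 for UGT and 0.08 for SULT genes, and -0.04 for all genes. At an unadjusted p under 0.05 there were 20 of 44 genes, against 24.7% of all genes. The 2 groups did not overlap for 34 genes (77.3%), 19 higher and 15 lower, against 63.2% of all genes, 28.3% higher and 35% lower; for UGT genes this was 12 of 13.

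Ugt2b5 had log2 levels of 2.62 and 2.49 in untreated db/db, 2.86 and 2.60 in control miRNA, 1.84 and 1.59 in mimic, and 4.32 and 4.88 in normal kidney. All 6 db/db kidneys lay below both normal kidneys, and the mimic kidneys lay lowest. Ugt2b5 fell by 2.05 on the log2 scale in untreated db/db kidney (SE 0.22, limma, Benjamini-Hochberg adjusted p = 0.0162), with differences of -1.87 with control miRNA (0.0248) and -2.88 with the mimic (0.00488), each against normal. Ugt2b38, whose probe lies at 87839345 to 87839404 on chromosome 5 of mm9, had levels of 5.51 and 5.44 in untreated db/db, 5.77 and 5.64 in control miRNA, 5.07 and 4.71 in mimic, and 6.86 and 7.52 in normal kidney. Its differences were -1.72 (SE 0.24, adjusted p = 0.0265), -1.49 (0.0444) and -2.31 (0.00697) in the same order. Again no db/db kidney reached the level of a normal one.

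The same order of groups held in the other 3 genes. Ugt2b37 had levels of 3.89 and 3.86 in untreated db/db, 4.13 and 3.92 in control miRNA, 3.29 and 3.00 in mimic, and 5.48 and 6.05 in normal kidney. Ugt2b36 had levels of 2.31 and 2.16 in untreated db/db, 2.45 and 2.30 in control miRNA, 1.63 and 1.28 in mimic, and 3.78 and 4.43 in normal kidney. Neither gene showed overlap between db/db and normal kidneys, and normal replicate 2 was the higher normal kidney for both. Ugt2b35 had levels of 0.11 and -0.11 in untreated db/db, 0.32 and 0.19 in control miRNA, -0.66 and -0.93 in mimic, and 1.57 and 2.04 in normal kidney. Over these 5 genes the adjusted p ran from 0.0162 to 0.0265 in untreated db/db, from 0.0248 to 0.0444 in control miRNA and from 0.00488 to 0.00697 in mimic kidney, each against normal. Without mimic replicate 1 the 5 differences of mimic from normal kidney ran from -3.01 to -2.48 (adjusted p from 0.00336 to 0.00812). The 3 comparisons use the same normal arrays, so they are not independent of each other.

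Ugt2b34, at the other end of the cluster, went the opposite way. Its levels were 2.34 and 2.29 in untreated db/db, 2.17 and 2.02 in control miRNA, 1.75 and 2.25 in mimic, and -0.16 and -0.19 in normal kidney (probe at 87318849 to 87318908 on chromosome 5 of mm9). Each db/db kidney lay above both normal kidneys by more than the spread within any group. The gene rose by 2.49 in untreated db/db (SE 0.18, limma, adjusted p = 0.00639), by 2.27 with control miRNA (0.0115) and by 2.17 with the mimic (0.00518). Ugt2b1, between Ugt2b34 and Ugt2b35, was well above background on 0 of 8 arrays.

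**Figure D1:**
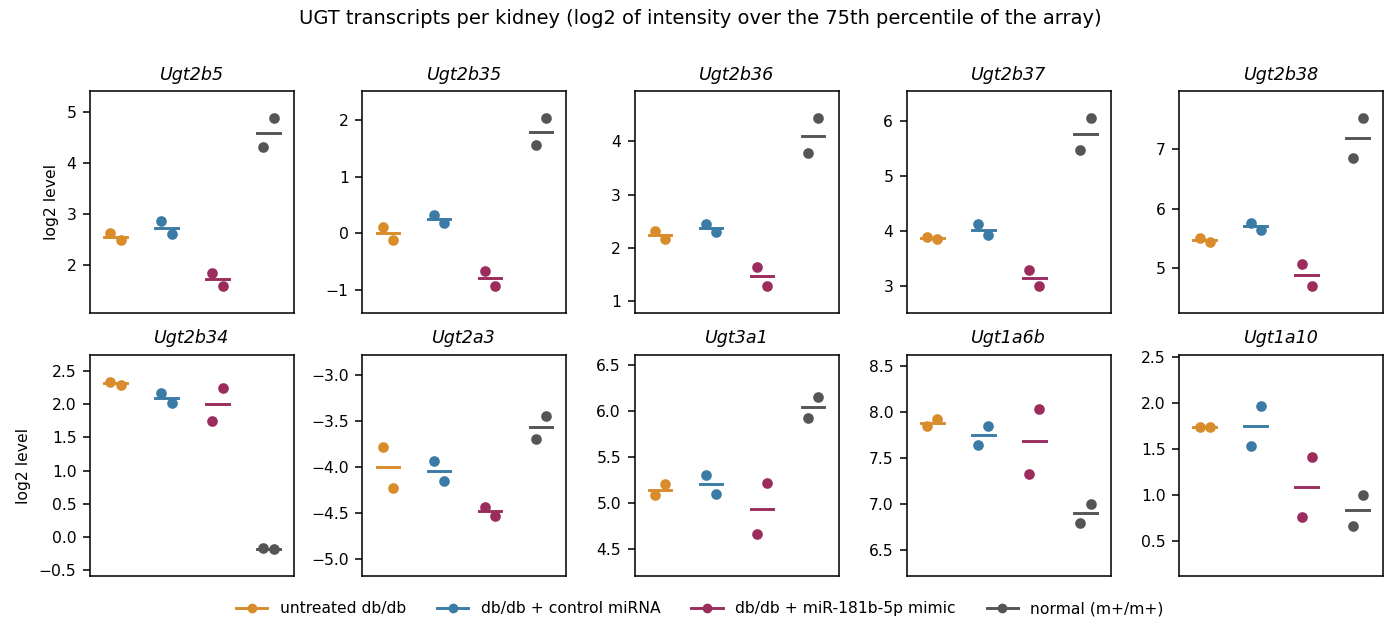
Log2 levels of 10 UGT genes on each array, relative to the 75th percentile of the array; each point is 1 kidney and each bar the mean of 2, with db/db groups left of normal. The 5 lower Ugt2b genes show normal kidneys on top and mimic kidneys lowest, while Ugt2b34 lies at -0.16 and -0.19 in normal kidney and at 1.75 or above in all db/db kidneys.

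**Figure D2:**
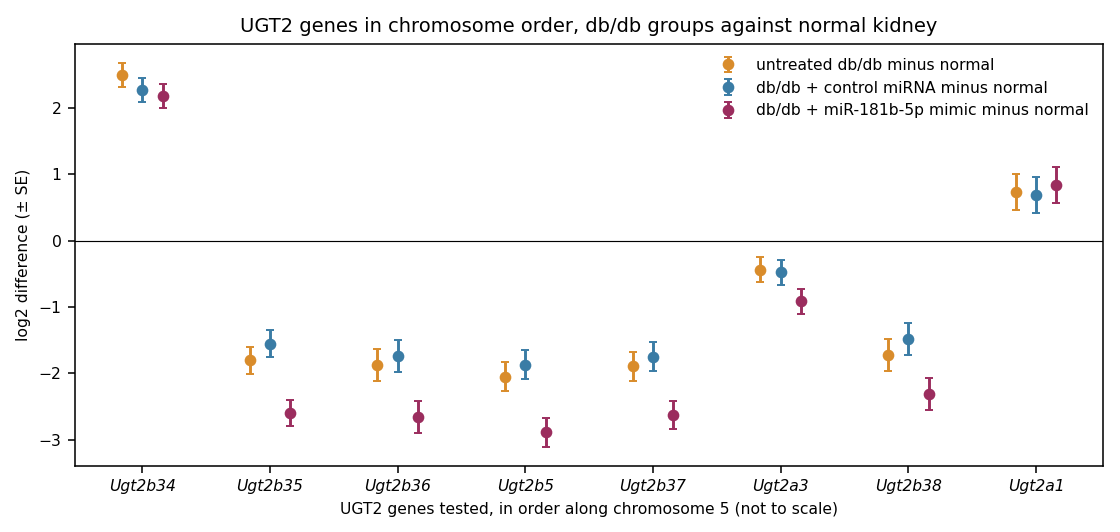
Log2 difference of each db/db group from normal kidney, with its standard error, for the 8 tested UGT2 genes in their order along the chromosome. Ugt2b34 and Ugt2a1 lie above 0, and the 6 genes between them lie below 0 in all 3 comparisons.

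Of the remaining UGT genes, 2 passed, both in mimic against normal kidney. Ugt2a3 had levels of -3.78 and -4.22 in untreated db/db, -3.93 and -4.15 in control miRNA, -4.44 and -4.53 in mimic, and -3.69 and -3.44 in normal kidney. It fell with the mimic (-0.91, SE 0.19, limma, adjusted p = 0.0385), with values of -0.44 (0.218) in untreated db/db and -0.48 (0.216) in control miRNA. The mimic kidneys lay lowest of all 8, but without mimic replicate 1 the gene did not pass (-0.96, adjusted p = 0.0646). Ugt3a1, whose human counterpart uses N-acetylglucosamine in place of glucuronic acid, had levels of 5.09 and 5.21 in untreated db/db, 5.31 and 5.10 in control miRNA, 4.66 and 5.22 in mimic, and 5.93 and 6.15 in normal kidney. It fell with the mimic (-1.10, adjusted p = 0.0326) and stood at -0.89 (0.0728) and -0.84 (0.0973) in untreated db/db and control miRNA kidney. Its neighbour Ugt3a2 stood at -0.72 (0.117), -0.66 (0.163) and -0.91 (0.0547; -0.61 without mimic replicate 1), and for both genes every db/db kidney lay below both normal kidneys. Another Ugt3a2 probe, A_52_P557240, gave -1.05 (limma, 0.0645, adjusted over probes), -1.10 (0.0769) and -1.19 (0.0389), and so passed with the mimic. Probe A_66_P104175 gave -0.81 (0.0848) and -0.89 (0.0877) in untreated db/db and control miRNA kidney. It read -3.38 and -2.93 in mimic and -1.74 and -1.53 in normal kidney.

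Ugt1a genes code for enzymes that glucuronidate phenols and bilirubin; each has its own first exon, and all share the rest of the transcript. The probe that stands for Ugt1a6b (90115493 to 90115552 on chromosome 1 of mm9) read 7.85 and 7.92 in untreated db/db, 7.65 and 7.85 in control miRNA, 7.33 and 8.03 in mimic, and 6.80 and 7.00 in normal kidney. This probe and that of Ugt1a6a lie far downstream of the first exon of Ugt1a6b, on the side that the transcripts share, so other Ugt1a transcripts may add to both. All db/db kidneys lay above the normal ones, but the differences of 0.99, 0.85 and 0.78 did not pass (limma, adjusted p = 0.0769, 0.121 and 0.0915). Another Ugt1a6b probe, A_55_P2143765, which lies upstream at 90004249 to 90004308, stood at 2.45 (0.0466, adjusted over probes) in untreated db/db, 2.42 (0.0632) in control miRNA and 1.53 (0.0955) in mimic kidney, and a downstream one, A_55_P2742311, at 1.52 (0.0556), 1.31 (0.0917) and 1.13 (0.0819). The upstream probe was well above background on 6 of 8 arrays. It read -5.10 and -4.94 in normal kidney, near the lowest signal well above background there (-5.04 and -5.08). The size of its differences is therefore uncertain. Ugt1a10 stood at 0.91 (0.105), 0.92 (0.123) and 0.25 (0.546; 0.58 without mimic replicate 1) and Ugt2a1 at 0.74 (0.165), 0.69 (0.214) and 0.84 (0.103; 1.27 without mimic replicate 1) in the same order. Ugt1a6a stood at 0.18 (0.760), 0.39 (0.505) and 0.32 (0.504).

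Over the UGT family, 8 of 13 genes were below both normal kidneys in all 6 db/db kidneys and 3 were above, while 20.1% of all genes were below and 14% above by the same count. Of all 44 genes, 10 were below and 11 above. In the GST family 6 of 20 genes were above and 1 below, and in the SULT family 2 of 11 were above and 1 below.

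Among GST genes, Gsta2 of the alpha class and Gsto1 of the omega class rose in each db/db group. Gstt1 of the theta class passed with the mimic only. The mu and pi classes showed no gene past the threshold by the probe that stands for it. Other probes of the mu-class genes Gstm6 and Gstm7 did pass with the mimic, in opposite directions. Gsta2, an alpha-class enzyme that conjugates electrophiles and reduces lipid hydroperoxides, had levels of 5.26 and 5.36 in untreated db/db, 4.67 and 5.63 in control miRNA, 3.64 and 5.66 in mimic, and 0.36 and 0.97 in normal kidney. Every db/db kidney exceeded both normal kidneys, and mimic replicate 1 was the lowest of the db/db kidneys. The gene (probe at 78178856 to 78178915 on chromosome 9 of mm9) rose 25.1-fold in untreated db/db kidney (4.65, SE 0.67, limma, adjusted p = 0.0272), by 4.48 with control miRNA (0.0377) and by 3.99 with the mimic (0.0224). Without mimic replicate 1 the value for the mimic was 5.00 (0.00392). The other alpha-class genes were Gsta3, at 0.77 (0.203), 0.91 (0.172) and 0.71 (0.192; 1.10 without mimic replicate 1), and Gsta4, which conjugates the lipid aldehyde 4-hydroxynonenal, at 0.63 (0.375), 0.75 (0.333) and 0.56 (0.373; 1.15 without mimic replicate 1).

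Gsto1, an omega-class enzyme that reduces dehydroascorbate and removes glutathione from proteins, had levels of 4.41 and 4.44 in untreated db/db, 4.35 and 4.59 in control miRNA, 4.36 and 4.70 in mimic, and 3.09 and 2.97 in normal kidney. The db/db groups lay close to each other and apart from normal kidney. Gsto1 rose 2.63-fold in untreated db/db (log2 difference 1.39, SE 0.16, limma, adjusted p = 0.0172), 2.71-fold with control miRNA (0.0222) and 2.83-fold with the mimic (0.0071), and log2 differences at its other probe were 1.55, 1.47 and 1.59. The related Gsto2 stood at 0.26, 0.26 and -0.08 (0.646, 0.675 and 0.880). Gstt1, a theta-class enzyme that acts on small halogenated compounds, had levels of 5.61 and 5.77 in untreated db/db, 5.69 and 5.67 in control miRNA, 5.64 and 5.97 in mimic, and 5.17 and 5.13 in normal kidney. It rose with the mimic (0.65, adjusted p = 0.0467) and stood at 0.54 (0.0939) and 0.53 (0.116) in untreated db/db and control miRNA kidney, with no overlap in any of the 3. The 2 probes of Gstt2 went opposite ways without passing, at 0.14, 0.22 and 0.07 for the probe that stands for the gene and at -0.99, -0.92 and -1.84 for A_55_P2732713 (0.309, 0.380 and 0.0898, adjusted over probes), so no direction is given.

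The mu class conjugates epoxides and other electrophiles. Gstm5 had levels of 5.89 and 5.92 in untreated db/db, 5.91 and 5.89 in control miRNA, 5.92 and 5.94 in mimic, and 5.12 and 5.53 in normal kidney, and did not pass (0.58, 0.57 and 0.60, limma, adjusted p = 0.0915, 0.112 and 0.0632). Gstm2 was the one GST gene with all db/db kidneys below both normal kidneys, at -0.38 (0.324), -0.32 (0.434) and -0.58 (0.133). Gstm3 stood at -0.24 (0.559), -0.12 (0.801) and -0.47 (0.218; -0.15 without mimic replicate 1). For Gstm6 and Gstm7 the probes disagreed in the comparison of mimic with normal kidney. The probe that stands for Gstm6 gave -0.27 (0.510), while A_55_P2031692 gave 1.34 (0.0214, adjusted over probes). The probe that stands for Gstm7 gave 0.21 (0.769), while A_55_P2016662 gave -1.29 (0.0415). No direction is therefore given for these 2 genes.

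The pi-class gene Gstp2 had levels of 6.58 and 6.44 in untreated db/db, 6.35 and 6.67 in control miRNA, 6.12 and 6.47 in mimic, and 6.28 and 6.49 in normal kidney, all within the same range. Gstp3 lay near background, at -4.80 and -4.32 in untreated db/db, -4.98 and -3.55 in control miRNA, -1.22 and -4.97 in mimic, and -6.14 and -5.72 in normal kidney. It was well above background on 0 normal arrays, so the differences are bounds: at least 1.41-fold higher in untreated db/db, 1.73-fold in control miRNA and 3.89-fold in mimic kidney (limma, adjusted p = 0.508, 0.454 and 0.162). The bound for the mimic rests on replicate 1, since replicate 2 was not well above background. Gstz1, an enzyme of tyrosine breakdown, stood at -0.21 (0.698), -0.38 (0.504) and -0.19 (0.695).

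**Figure D3:**
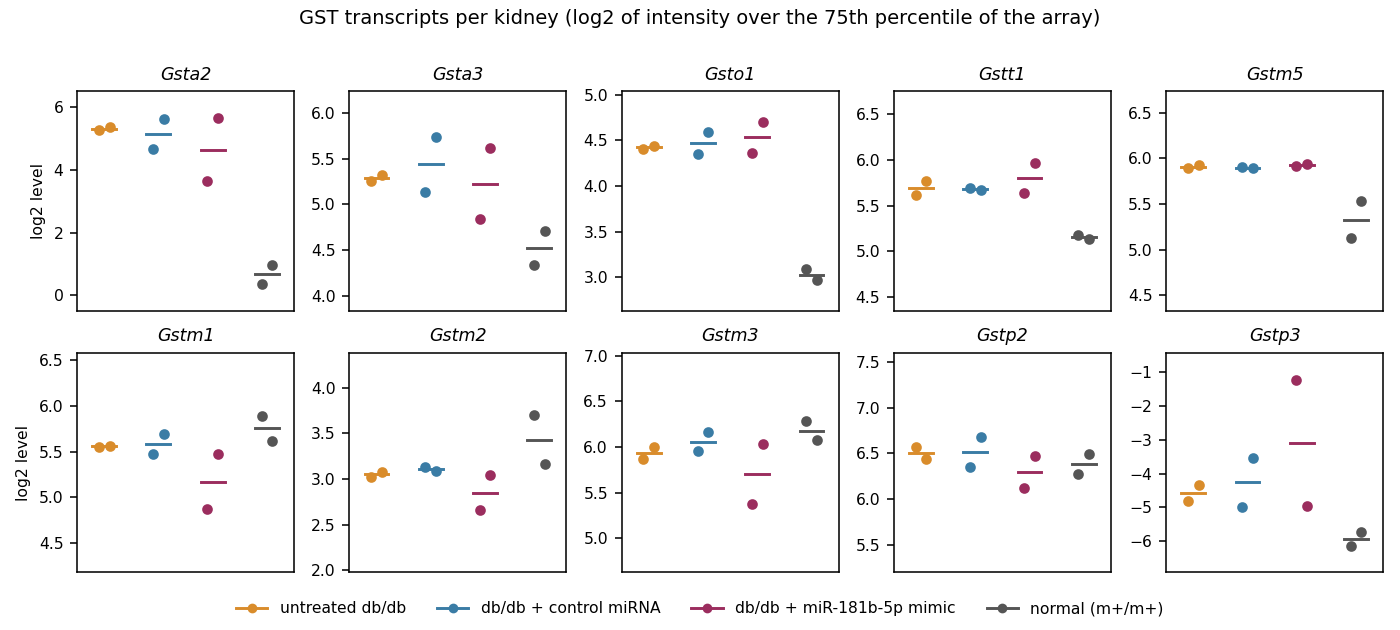
Log2 levels of 10 GST genes on each array, relative to the 75th percentile of the array; each point is 1 kidney and each bar the mean of 2. Gsta2, Gsto1 and Gstt1 lie above normal in every db/db kidney, while mimic replicate 1 is the lower mimic kidney for each gene shown but Gstp3.

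One SULT gene passed in untreated db/db against normal kidney. Sult1a1, which sulfates phenols, had levels of 1.56 and 1.34 in untreated db/db, 1.24 and 1.04 in control miRNA, 2.26 and 1.71 in mimic, and 0.30 and 0.37 in normal kidney. The mimic kidneys lay highest and the normal kidneys lowest. Sult1a1 rose 2.17-fold in untreated db/db kidney (1.12, SE 0.21, limma, adjusted p = 0.047) and by 1.65 with the mimic (0.0102), and stood at 0.81 with control miRNA (0.101); its other probe gave 1.15, 1.63 and 0.86.

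A pair of SULT genes passed in the comparison of mimic with normal kidney and in no other. Sult1d1, which sulfates catecholamines in the mouse, had levels of 5.13 and 4.94 in untreated db/db, 4.76 and 4.92 in control miRNA, 5.83 and 5.49 in mimic, and 4.90 and 5.02 in normal kidney. It rose by 0.70 in mimic kidney (SE 0.16, limma, adjusted p = 0.0497), against 0.08 (0.809) and -0.12 (0.717) in untreated db/db and control miRNA kidney. Its other probe gave 0.68 in mimic kidney and did not pass (limma, 0.0558, adjusted over probes). Sult2a8, which sulfates bile acids in the mouse, had levels of -0.69 and -0.69 in untreated db/db, -0.56 and -0.69 in control miRNA, -0.29 and -0.35 in mimic, and -0.77 and -0.92 in normal kidney. It rose by 0.53 with the mimic (SE 0.12, 0.0455), against 0.16 (0.457) and 0.22 (0.330). The mimic kidneys lay above all others for both genes, but neither gene passed against control miRNA: Sult1d1 stood at 0.82 (0.186) and Sult2a8 at 0.31 (0.503). Neither passed against normal when mimic replicate 1 was left out, at 0.53 (0.0969) and 0.50 (0.0846).

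The hydroxysteroid sulfotransferases Sult2a2, Sult2a3 and Sult2a6 stood lower in untreated db/db kidney without passing (-0.95, -0.88 and -0.75, limma, adjusted p = 0.225, 0.176 and 0.0903). Sult2a2 had levels of -4.96 and -4.58 in untreated db/db, -4.36 and -4.85 in control miRNA, -2.88 and -4.07 in mimic, and -4.05 and -3.59 in normal kidney, with mimic replicate 1 highest. Sult2a6 had levels of -4.95 and -4.58 in untreated db/db, -4.54 and -4.83 in control miRNA, -3.87 and -4.23 in mimic, and -4.08 and -3.96 in normal kidney, so that mimic and normal kidneys overlapped and the other groups lay lower. Sult1c2 stood at 0.41 (0.590), 0.30 (0.720) and -0.72 (0.288; -0.06 without mimic replicate 1), with mimic replicate 1 alone at 3.33 and the other 7 kidneys between 4.46 and 5.20. Sult1b1, which sulfates thyroid hormone, stood at 0.46 (0.464), 0.25 (0.719) and -0.10 (0.873). Its other probe, A_52_P644613, gave -0.29, -0.39 and -0.70, so no direction is given.

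**Figure D4:**
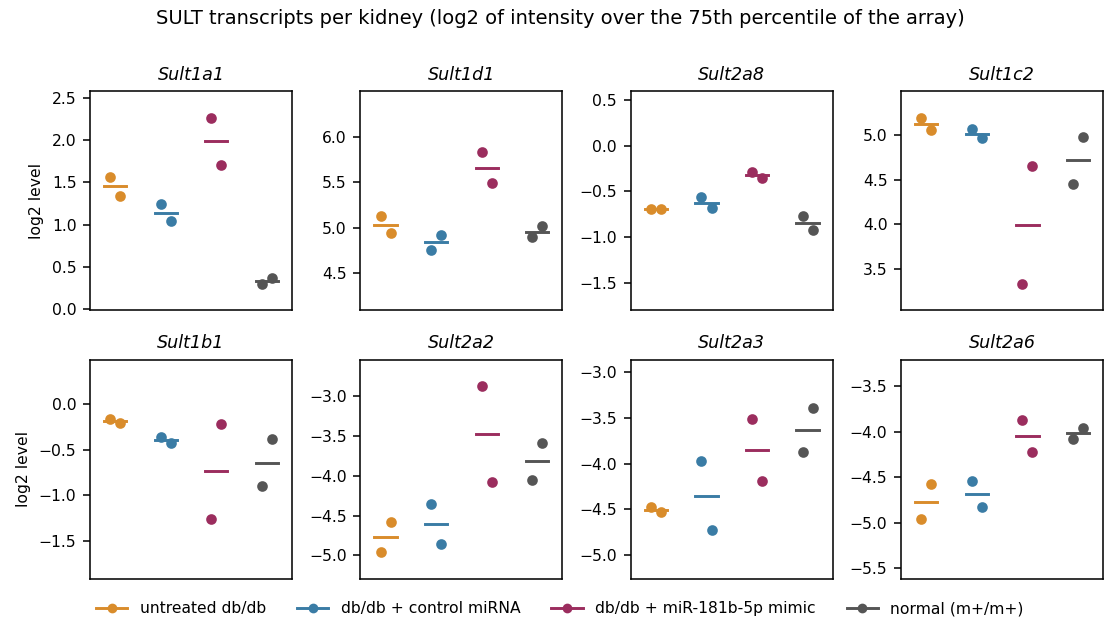
Log2 levels of 8 SULT genes on each array, relative to the 75th percentile of the array; each point is 1 kidney and each bar the mean of 2. The mimic kidneys lie highest for Sult1a1, Sult1d1 and Sult2a8, and mimic replicate 1 stands apart for Sult1c2 and Sult2a2.

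The 12 genes that were not tested included 10 SULT genes, among them Sult1e1, which sulfates oestrogens, and Sult2a1. Sult3a2, Sult4a1 and Sult6b2 were well above background on 2 arrays each, and the other 9, with Gstt4 and Ugt2b1 among them, on 0.

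Against normal kidney, control miRNA gave 8 genes past the threshold (18.2%, 3 higher and 5 lower; 1.87% of all genes, with 0.675% higher and 1.19% lower). These were Gsta2, Gsto1 and Ugt2b34, which rose, and the 5 Ugt2b genes that fell; the same 8 passed in untreated db/db kidney, where Sult1a1 was the ninth. The mimic gave 14 genes (31.8%, 7 higher and 7 lower; 8.98% of all genes, with 3.04% higher and 5.93% lower): those 9 with Gstt1, Sult1d1, Sult2a8, Ugt2a3 and Ugt3a1. With only the mimic and normal arrays in the fit 0 genes passed, with no filter on dim probes 9 and with array weights 8. For untreated db/db the count was 15 with only the compared arrays or with array weights and 14 with normexp background correction, and for control miRNA it was 2 with no filter. By family, 3 GST, 1 UGT and 3 SULT genes rose with the mimic, and 7 UGT genes fell. The median log2 difference of the 13 UGT genes was -0.66 with control miRNA and -0.91 with the mimic, beside -0.04 and -0.09 for all genes. Unadjusted p-values under 0.05 were found for 20 genes with control miRNA and 23 with the mimic, against 21.7% and 30.3% of all genes. With control miRNA 16 genes were higher and 13 lower than normal without overlap (65.9%, against 59% of all genes, 26.2% higher and 32.8% lower), and with the mimic 13 were higher and 14 lower (61.4%, against 53.8%, 21.6% higher and 32.2% lower).

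**Figure D5:**
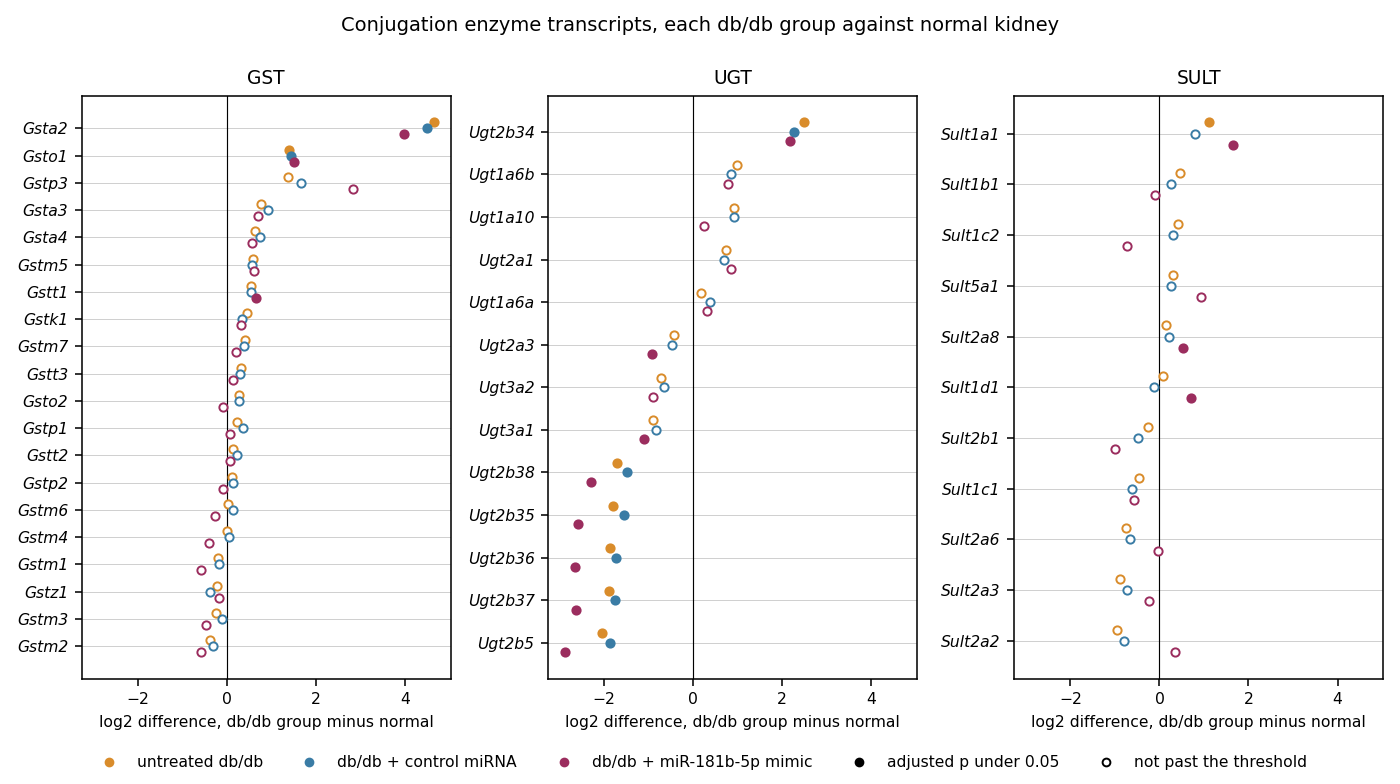
Log2 difference from normal kidney of the 44 tested genes in each of the 3 db/db groups, by family; filled points passed at an adjusted p under 0.05. The UGT panel holds 5 genes below -1.4 in all 3 comparisons, while most GST and SULT genes lie within 1 of 0.

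The calls depended on single arrays. For untreated db/db against normal, 9 genes became 0 without either untreated array, 2 without normal replicate 1, 0 without normal replicate 2, 5 without either control miRNA array and 16 without either mimic array, whose spread enters the shared variance. For control miRNA against normal the count was 0 without either array of a compared group, 1 without either untreated array, and 15 without either mimic array. For the mimic against normal it was 7 and 6 without normal replicates 1 and 2, 8 without either untreated array, 9 without either control miRNA array, 13 without mimic replicate 1, of which 11 were among the 14, and 22 without mimic replicate 2. Without mimic replicate 1, the probe that stands for Ugt1a6b, Ugt2a1 and Ugt3a1 passed in all 3 comparisons with normal, at 0.99, 0.85 and 1.14, at 0.74, 0.69 and 1.27, and at -0.89, -0.84 and -0.82.

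The mimic was set against control miRNA to separate the miRNA from its carrier. In limma 0 of 44 genes passed (0% of all genes), and 12 had an unadjusted p under 0.05, against 9.31% of all genes. The 5 lower Ugt2b genes stood 1.76- to 2.07-fold lower with the mimic, Ugt2b35 at -1.05 (SE 0.20, adjusted p = 0.175) and Ugt2b5 at -1.01 (SE 0.22, 0.233). For each of the 5 the mimic kidneys lay below both control miRNA kidneys, while in all 6 of the 44 genes were higher and 9 lower without overlap (34.1%, against 39.4% of all genes, 16.5% higher and 22.9% lower). Sult1a1 stood at 0.84 (0.295), Sult2a2 at 1.13 (0.485) and Sult1c2 at -1.03 (0.530), and without mimic replicate 1 at 0.57 (0.381), 0.53 (0.757) and -0.36 (0.807). Over the families, the median was -0.20 for GST, -0.44 for UGT and 0.50 for SULT genes, and -0.04 for all genes. With mimic replicate 1 left out 0 genes passed, and with mimic replicate 2 left out 9 did.

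Between control miRNA and untreated db/db kidney the groups differed least. In limma 0 genes passed (0% of all genes), and 0 of the 44 had an unadjusted p under 0.05, against 3.24% of all genes. The 5 lower Ugt2b genes stood between 0.14 and 0.25, Gsta2 at -0.17 and Ugt2b34 at -0.22, each with an adjusted p near 1. Apart from Gstp3, the largest values were -0.31 for Sult1a1 and 0.25 for Ugt2b35. Without overlap 7 genes were higher and 4 lower (25%, against 39.8% of all genes, 19.4% higher and 20.4% lower). The median over the 44 genes was 0.03, beside -0.01 over all genes.

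The mimic against untreated db/db, where array column is shared but array row is not, gave 0 genes in limma (0% of all genes), with 13 of 44 at an unadjusted p under 0.05, against 13.9% of all genes. The 5 lower Ugt2b genes stood between -0.84 and -0.59 (adjusted p from 0.206 to 0.358), again with no overlap. SULT genes were higher without passing: Sult2a2 stood at 1.29 (0.282), Sult2a6 at 0.72 (0.239), Sult2a3 at 0.65 (0.427), Sult1d1 at 0.63 (0.216) and Sult1a1 at 0.53 (0.340), while Sult1c2 stood at -1.14 (0.321). When mimic replicate 1 was left out these were 0.69 for Sult2a2, 0.54 for Sult2a6, 0.31 for Sult2a3, 0.46 for Sult1d1, 0.26 for Sult1a1 and -0.47 for Sult1c2. Of 11 SULT genes, 7 were higher and 3 lower without overlap, beside 20.7% and 27.1% of all genes; over the 44 genes the share without overlap was 47.7%, against 47.8% of all genes. With mimic replicate 1 left out 0 genes passed, and with mimic replicate 2 left out 11 did.

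Genes that supply or follow the conjugation steps were read from lists of 107 tested genes. In untreated db/db kidney 3 rose and 8 fell, in control miRNA kidney 1 rose and 6 fell, and in mimic kidney 9 rose and 13 fell, each against normal. Of all genes 3.5%, 1.87% and 8.98% passed in the same order, which is the background for the single lists below as well. The median over the 107 was -0.12, -0.13 and -0.22. In the 3 comparisons among db/db groups 0 passed. Without mimic replicate 1, 17 of the 22 called in mimic kidney passed; the 5 that did not were Abcc3 at 1.56 (limma, adjusted p = 0.0859), Gclc at -0.82 (0.0537), Gclm at -0.84 (0.0593), Ggt5 at -0.76 (0.0581) and Hmox1 at 0.75 (0.0604).

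Of 16 genes of glutathione synthesis and turnover, 2 fell in untreated db/db kidney: Ggct, which breaks gamma-glutamyl peptides (-1.82, limma, adjusted p = 0.0172), and Ggt1, which cleaves extracellular glutathione (-1.19, 0.0181). Both also fell in control miRNA (-1.81 and -1.11) and mimic kidney (-2.16 and -1.04). With the mimic, Gclc (-0.72, 0.0474) and Gclm (-0.85, 0.0307), the subunits of the enzyme that limits glutathione synthesis, and Ggt5 (-0.77, 0.0305) also fell, and Ggt6 rose (0.96, 0.0445). Of 8 genes of the mercapturic acid step, in which glutathione conjugates are trimmed and acetylated, Acy3, which deacetylates mercapturates, fell in untreated db/db (-1.74, 0.0496) and mimic kidney (-2.28, 0.0155), and Nat8f5 rose (1.78, 0.0431, and 2.10, 0.017). Of 6 membrane-bound relatives of GST, Ltc4s rose with the mimic (0.97, 0.0301).

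Of 7 genes of UDP-glucuronate supply, 0 passed in untreated db/db and control miRNA kidney, and Slc35d2, a nucleotide sugar transporter, fell with the mimic (-1.20, limma, adjusted p = 0.0151). Of 9 genes that supply the sulfate donor PAPS, 0 passed in any comparison. Of 7 deconjugating enzymes, the sulfatase gene Arsg fell in untreated db/db (-1.38, 0.0482) and mimic kidney (-2.17, 0.00919). Of 10 efflux transporters, Abcc4, which exports glucuronides and sulfates, rose in untreated db/db (1.72, 0.032), control miRNA (1.65, 0.0446) and mimic kidney (1.25, 0.0432), and Abcc3 (1.66, 0.0386) and Abcb1b (1.14, 0.0185) rose with the mimic. Of 12 other conjugating enzymes, Ugt8a, which makes galactosylceramide, fell in all 3 db/db groups (-1.21, -1.44 and -1.68).

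Of 15 targets of NRF2, the transcription factor that induces many GST genes, Cbr1 rose (1.00, limma, adjusted p = 0.0346) and Me1 fell (-1.29, 0.0187) in untreated db/db kidney, so the called targets did not share a direction. With the mimic Cbr1 (1.05, 0.0178) and Hmox1 (0.68, 0.045) rose, and Me1, Gclc and Gclm fell. Of 21 regulators, Nr1i3, the nuclear receptor CAR (-1.19, 0.0173), and Ghr, the growth hormone receptor (-1.15, 0.0312), fell in untreated db/db kidney and in both other db/db groups. With the mimic Esr1, the oestrogen receptor (-1.59, 0.0187), fell and Nr1i2, the nuclear receptor PXR (0.93, 0.0415), rose.

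Markers of several cell types moved with the groups, and their part in these results was not tested. Slc7a13, a transporter of the late proximal tubule, had levels of 2.40 and 3.14 in untreated db/db, 2.62 and 2.19 in control miRNA, 0.11 and 1.71 in mimic, and 5.23 and 5.43 in normal kidney, with normal kidneys highest and mimic kidneys lowest, as for the 5 lower Ugt2b genes. It fell with the mimic (-4.42, limma, adjusted p = 0.00919) and stood at -2.56 (0.0566) in untreated db/db and -2.92 (0.0563) in control miRNA kidney; the other 11 proximal tubule markers did not pass in any comparison with normal. The median difference of the 12 was 0.20 in untreated db/db, 0.11 in control miRNA and -0.24 in mimic kidney, and 3, 3 and 5 had an unadjusted p under 0.05. Slc7a13 stood at -3.62 with the mimic (0.00504) when mimic replicate 1 was left out. Summed levels of 7 urothelial markers were 0.14 and 0.13 in untreated db/db, 2.68 and 0.54 in control miRNA, 2.68 and 0.25 in mimic, and 3.67 and 1.77 in normal kidney. Those of 6 macrophage markers were 3.52 and 3.59, 3.79 and 3.66, 5.40 and 3.34, and 4.62 and 4.61 in the same order, with mimic replicate 1 highest; Csf1r and Ms4a7 were the 2 members that fell, in each db/db group against normal. Those of 7 liver markers, an organ rich in these enzymes, were 6.73 and 7.14, 6.70 and 6.98, 7.19 and 6.74, and 7.14 and 7.21. Serpina1a was the brightest liver marker on every array and carried most of that sum. Ttr rose in each db/db group, by 2.52, 2.50 and 2.90, and Tat fell with the mimic by 0.86. Fgb read 4.77 on mimic replicate 1 and between -3.55 and -2.28 on the other arrays. Alb read -0.50 and -0.46 in normal kidney, -1.07 on mimic replicate 1 and between 0.31 and 1.13 on the other db/db arrays. Summed levels of 8 fat markers ran from 3.19 to 3.66 in db/db kidneys and were 6.19 and 3.34 in normal kidney. Fabp4 was the brightest fat marker in every db/db kidney and carried most of the sum there. The median difference of the 8 from normal was -4.40 in untreated db/db, -2.22 in control miRNA and -3.19 in mimic kidney. Summed levels of 4 red cell markers were 6.44 and 7.02 in untreated db/db, 6.97 and 5.84 in control miRNA, 7.43 and 2.61 in mimic, and 2.93 and 3.57 in normal kidney. Here mimic replicate 2 stood apart, below both normal kidneys, while every other db/db kidney lay above them. By limma, 0 of the urothelial, fat and red cell markers passed against normal after adjustment. At an unadjusted p under 0.05 there were 5 urothelial markers in untreated db/db, 0 in control miRNA and 4 in mimic kidney, 5, 3 and 3 fat markers, and 0 red cell markers in each.

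Some markers of other tubule segments and of T cells also moved. Against normal, 0 thick ascending limb and T cell markers passed in untreated db/db or control miRNA kidney. Of the collecting duct markers, 0 passed in any db/db group. Summed levels of 5 distal tubule markers were 7.18 and 6.96 in untreated db/db, 7.06 and 6.67 in control miRNA, 5.54 and 7.03 in mimic, and 5.37 and 5.73 in normal kidney. Of these Trpv5, a calcium channel, rose in untreated db/db (1.49, limma, adjusted p = 0.0378) and mimic kidney (1.63, 0.0174), and Calb1 stood at 1.99 (0.0651) in untreated db/db. Those of 6 thick ascending limb markers ran from 8.01 to 8.42 in db/db kidneys and were 8.67 and 8.66 in normal kidney, and Cldn10 fell with the mimic (-1.03, 0.0187). Those of 5 T cell markers ran from 1.48 to 2.02 in db/db kidneys and were 2.31 and 2.19 in normal kidney. Cd3d (-0.95, 0.0418) and Cd3e (-0.94, 0.0292) fell with the mimic. Without mimic replicate 1, Cd3d (-0.99, 0.0709) and Tat (-0.70, 0.0731) did not pass. Those of 8 collecting duct markers ran from 5.17 to 6.01 in db/db kidneys and were 5.91 and 5.67 in normal kidney, with overlap.

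Short motifs were searched on both strands of the RefSeq promoter window, from 250 bases before to 50 after the gene start, which was held for 48 of the 56 genes. The letters TGACNNNGC, the core of the antioxidant response element, were found in 3 genes (6.25%; Gsta3, Gstm5 and Gstm7), against 14.0% of 27025 promoters. The letters GCGTG, the core of the xenobiotic response element, were found in 8 (16.7% against 35.2%). The letters GTTAAT, part of the site of the hepatocyte nuclear factor HNF1, were found in 12 (25.0% against 8.24%): 4 of 12 UGT genes, namely Ugt1a6a, Ugt1a10, Ugt2a3 and Ugt3a1, 7 of 17 SULT genes, Sult1a1 and Sult1d1 among them, and Gsta3. None of the 7 Ugt2b genes held the exact letters of any of these motifs in this window. A match is a description of the letters and not a binding site. Variant forms of the motifs were not searched, so a missing match does not mean that a site is absent.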

How the data were processed

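The submitters' processing notes name Agilent Feature Extraction 12.0.3.1, and per the file headers it gave each spot's background-subtracted intensity and quality calls. The authors' deposited series table holds a linear ratio of each probe to its own median over arrays (scale found from the values: r from 0.9995 to 0.9999 with the scanner intensities, column medians 0.971 to 1.08); it served as an alternative. Per the labels, 50 ng of total RNA went into each Cy3 labelling.

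Intensities of 59305 non-control spots per array (75th percentile 489 to 651 units) were divided by that percentile and put on the log2 scale. Outlier spots were removed, which dropped 4 of 56605 probes, and spots of 1 probe were averaged. A probe was kept if some group had it well above background on both its arrays (33640 probes; 59 of the 82 for conjugation enzymes). A gene with several probes was represented by the one with the highest mean level. All 82 probes carried a RefSeq symbol; probe coordinates are on mm9 and gene coordinates on GRCm38.p6.

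The 8 arrays entered 1 linear model with a mean for each group (limma 3.58.1, R 4.3.3; 4 residual and 2.23 prior degrees of freedom), with Benjamini-Hochberg adjustment over 22369 genes and a threshold of 0.05 in each of 6 comparisons. The fit was checked on simulated data in which each gene had equal spread on all 8 arrays, taken from the groups other than the mimic. The wider spread of the mimic arrays was not covered by that check. An exact permutation test of 2 against 2 cannot go below 0.333. Nothing says whether tissue handling was separate for each mouse, so p-values measure the spread between these arrays, and 2 arrays a group limit the precision. An at-least fold sets the brighter group's mean against the dim group's values raised to the lowest signal well above background on each array. Single genes are named if they passed in a comparison, had 1 of the 6 largest differences in one or 1 of the 5 highest mean levels of a family, or had probes that went opposite ways while 1 of them passed; other genes were added to complete a class or subfamily after their values were seen. The members and the lists were chosen with earlier results of these data known. Alternatives covered normalization, background, filter, probe choice, variance model, array weights, the replicate number and leaving out each array. Protein sequences were not used here.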

Additional observations from a re-analysis of the deposited data

How the results depend on the processing

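The counts of genes past the threshold were 9, 8 and 14 for untreated db/db, control miRNA and mimic, each against normal, and 0 in the other 3 comparisons. For untreated db/db against normal the count was 14 with normexp background correction, 15 with only the arrays of the compared groups and 15 with array weights. For control miRNA against normal it was 2 with no filter on dim probes. For the mimic against normal it was 9 with no filter, 0 with only the arrays of the compared groups and 8 with array weights. Leaving out 1 array gave 0 to 16 genes for untreated db/db, 0 to 15 for control miRNA and 6 to 22 for the mimic, each against normal. It gave 0 to 9 for mimic against control miRNA, 0 to 0 for control miRNA against untreated db/db and 0 to 11 for mimic against untreated db/db. An array whose group is left with 1 sample is assumed to vary like the other groups. The causes of these moves were not tested.

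Replicate numbers did not pair the mice: correlations of same-numbered deviations ran from -0.0193 to 0.159. With the replicate number as a block, 8, 3 and 10 genes passed against normal in untreated db/db, control miRNA and mimic, and 0 in the other comparisons.

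Across 19 alternatives, 31 called values of single genes gave 589 results: 410 kept their call, 179 kept their direction without passing, and 0 changed direction. Leaving out 1 array could not turn the sign where the 2 groups did not overlap. Settings that changed only the variance left the difference as it was. For these settings the 0 was fixed in advance and does not measure how firm the directions are. Of 357 results for uncalled values, 348 stayed uncalled in the same direction, 6 passed, all without mimic replicate 2, and 3 changed sign. The last were Gstp3 at -0.71 for mimic against control miRNA and -0.41 for mimic against untreated db/db without mimic replicate 1, and at -0.41 for control miRNA against untreated db/db without control miRNA replicate 2. The other array of the pair gave 3.04, 3.34 and 1.02 in the same order, so single arrays set these Gstp3 values. Gstp3 and the 12 genes that were not tested are limited by signal over background. Other dim genes were well above background on 8 arrays but not far from the lowest such signal. In untreated db/db kidney Sult2a2 (-4.96 and -4.58) and Sult2a6 (-4.95 and -4.58) lay near that signal (-5.53 and -5.25). Ugt2a3 stood at -4.53 on mimic replicate 2, where that signal was -5.12.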
